A study of Homo sapiens with 2 samples.

Results

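The genes described here are the Wnt ligands, their Frizzled receptors and LRP and ROR co-receptors, the secreted inhibitors of the DKK, SFRP and WIF1 type, and a small set of genes that carry the signal inside the cell, in A375 cells treated with an siRNA against THOC2 or with a control siRNA. Members were taken by gene symbol from the deposited annotation, by a rule that uses no measured value but was written with earlier results of these data known. This gave 52 genes of the 34757 distinct symbols on the array, and 68 probes. A375 is an established human melanoma line. The study asked what the loss of THOC2, a subunit of the THO complex that takes part in the export of mRNA from the nucleus, does to melanoma cells. RNA of 1 culture transfected with the control siRNA (NC) and of 1 culture transfected with si-THOC2, both labelled as 48 h, was hybridized to 1 Agilent 1-colour array each, with probes of 60 bases placed on hg19. Apart from the siRNA, the labels describe the same cells and the same handling.

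With 1 array per group, the variation between cultures could not be measured and no test between the groups was made. Each difference below compares 1 array with 1 other. The title and description of each sample name the opposite condition from its source field, and the titles and descriptions were followed. THOC2 itself was lower on the array labelled si-THOC2. Its probe at chrX:122734486-122734545 gave processed signals of 136 ± 13.9 for NC and 40.9 ± 5.22 for si-THOC2, and its probe at chrX:122747960-122748019 gave 67.3 ± 7.36 and 35.1 ± 4.78, where ± is the error that the scanner software assigns to a signal. The processed signal is the intensity of a spot after the background is subtracted. Differences are given as log2 of the si-THOC2 signal over the NC signal, after each array was reduced by its own 75th percentile, and the mean over both THOC2 probes was -1.03. Since the 75th percentile was lower on the si-THOC2 array (6.31 against 6.62 on the log2 scale), equal raw signals correspond to a difference above 0. A technical SD, taken from the 11 probes with repeated spots that lay nearest in signal, is given with the differences and leaves out the variation between cultures.

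Wnt proteins are secreted, lipid-modified signals that bind Frizzled receptors, together with LRP5 or LRP6 in the branch that acts through β-catenin. That branch stabilizes β-catenin, which enters the nucleus and works with TCF and LEF factors on target genes, while other Wnts such as WNT5A act mainly through branches that do not need β-catenin. DKK1 blocks the LRP co-receptors and SFRP proteins bind the ligands. In the melanocyte lineage, Wnt signals act on the neural crest cells from which melanocytes arise, and WNT5A is known for its part in melanoma cell invasion.

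The probes that carry the differences described here are shown by the first 30 of their 60 bases, in lower case and as the deposited annotation gives them. WNT2B and WNT5B are shown because each was measured on a single array, WNT9A and WNT10A because they had the highest differences among ligands measured on both arrays, WNT5A because its difference lay near 0, and DKK3 because its probes gave unlike differences. In hg19 they lie at chr1:113063369-113063428 (WNT2B), chr12:1755801-1755860 (WNT5B), chr1:228109533-228109592 (WNT9A), chr2:219758393-219758452 (WNT10A), chr3:55499800-55499859 (WNT5A), chr11:11984915-11984974 (DKK3 probe 1) and chr11:11986163-11986222 (DKK3 probe 2). The probes of WNT9A, WNT5A and DKK3 are for the minus strand and the others for the plus strand. Whether they lie in coding exons or UTRs was not analysed here.
WNT2B: aagggagagtagaagagatagggggtcttt
WNT5B: cactaggccaagaggccctatgaaggtggc
WNT9A: atctgaagcacaagtatgagacggcactca
WNT10A: aagaaatagacataactgagctgaagtaat
WNT5A: gcatcttagaccatttttatatgcagtgta
DKK3 probe 1: ggtaattgtagggcgaggattataaatgaa
DKK3 probe 2: tgtatgtgtgcaagccgaccttcgtgggga

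Of the 52 genes, 30 (57.7%) had a probe that the scanner software called well above background on at least 1 array, against 17514 of 34757 symbols (50.4%) on the whole array. Both arrays measured 26 of them, and 4 genes (WNT2B, WNT5B, WNT7B and DKK4) were measured on 1 array only. The 22 genes that were not well above background on either array were the ligands WNT1, WNT2, WNT4, WNT7A, WNT8A, WNT8B, WNT9B, WNT11 and WNT16, the receptors FZD3 and FZD10, the co-receptors ROR1 and ROR2, the inhibitors DKK2, FRZB, SFRP2, SFRP4, SFRP5 and WIF1, and the feedback regulators AXIN2, NKD1 and RNF43. Their levels could not be compared at this signal. By role, 10 of 19 ligands, 8 of 10 Frizzled receptors, 2 of 4 co-receptors, 4 of 10 secreted inhibitors, 2 of 5 cytoplasmic and membrane regulators, and all 4 TCF and LEF factors were measured. The 33 member probes measured on neither array had signals of 2.92 to 14.2 on the NC array and 3.17 to 13.9 on the si-THOC2 array, under the lowest signals well above background (14.7 and 15.9). RefSeq promoters of GRCh38.p14, short windows around the start of a gene, were matched by symbol. Their median GC content was 73.7% in 21 measured members and 69.3% in 16 members that were not measured, against 64.7% and 54% in all measured and unmeasured genes of the array.

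**Figure D1:**
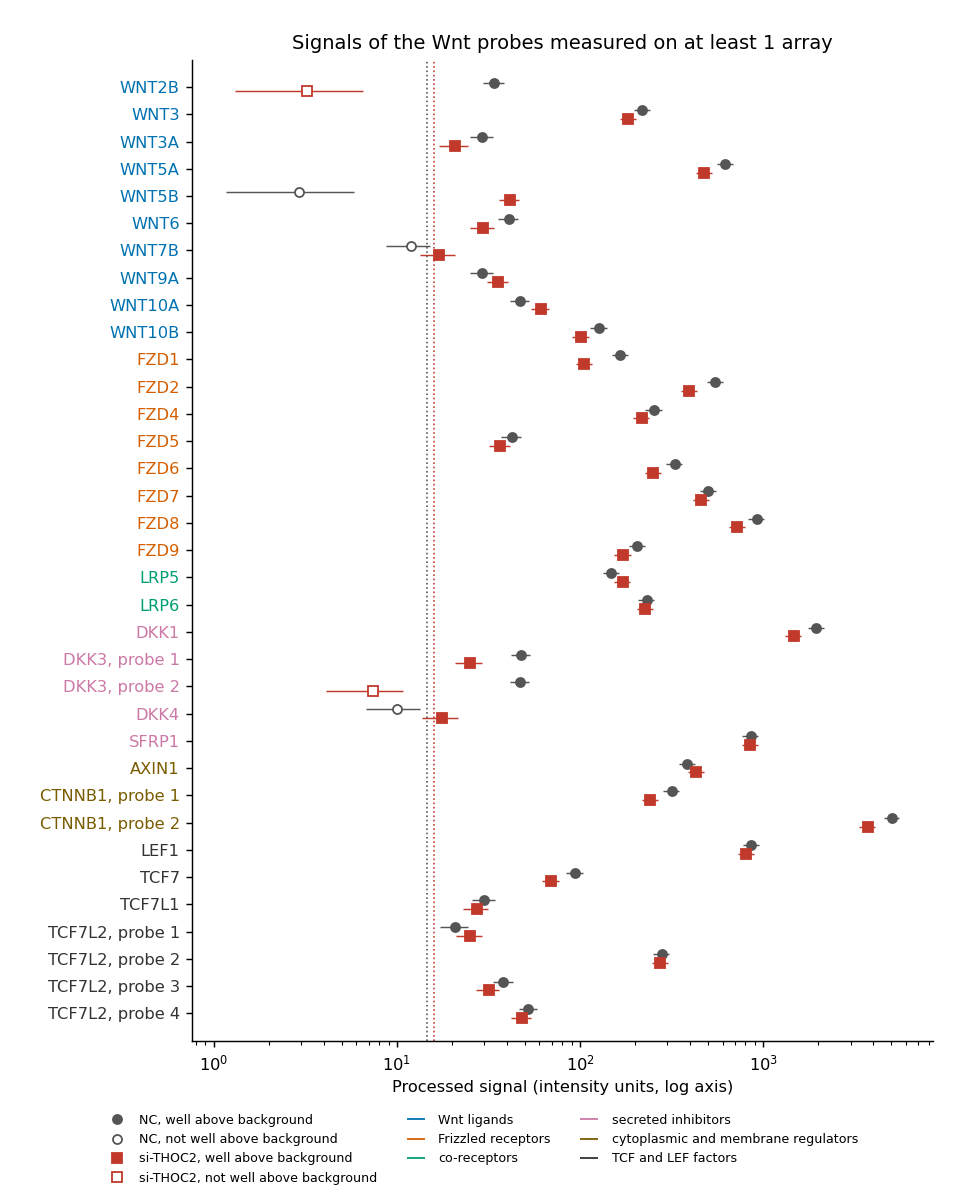
Processed signal (intensity units, log axis) of each Wnt probe measured on at least 1 array, with NC as circles and si-THOC2 as squares, the scanner software's error as bars (lower arms are drawn to at most 60% of the signal) and open symbols where a signal was not well above background. The dotted lines mark the dimmest signal that each array called well above background, and the 5 open symbols belong to WNT2B, WNT5B, WNT7B, DKK3 probe 2 and DKK4.

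Few of the measured members differed by 2-fold, the fold threshold of the study, which its methods paired with a P value from a t-test. Only the fold was applied here. At this threshold 2 of 30 genes (WNT2B and DKK3) were lower and 2 (WNT5B and DKK4) were higher with si-THOC2, where 3.34% of all measured genes were lower and 2.96% were higher. All 4 rested on a probe measured on a single array. Among the 26 genes measured on both arrays none was lower or higher by 2-fold, where the shares over all such genes were 0.352% and 0.837%. At 1.5-fold, 1 of the 26 (DKK3) was lower and 2 (WNT9A and WNT10A) were higher, where 2.61% and 3.53% of all genes were. With each dim signal raised to the lowest signal well above background on its array, no member was lower and 1 (WNT5B) was higher by 2-fold, where 0.811% and 1.79% of all genes were. In lists of 26 and 30 genes these counts lie close to the shares over all genes, and nothing particular to the Wnt genes is read from them.

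The median difference of the 26 members measured on both arrays was 0.05, beside 0.04 over the 15647 genes measured in the same way. Of the 26 members, 12 lay below 0 and 14 (53.8%) above, where 56.8% of all such genes lay above 0. They ran from -0.63 to 0.68, where 5% of all genes lay below -0.45 and 5% above 0.51. With the members of 1 array included, the median was 0.07, beside 0.02 over all measured genes.

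**Figure D2:**
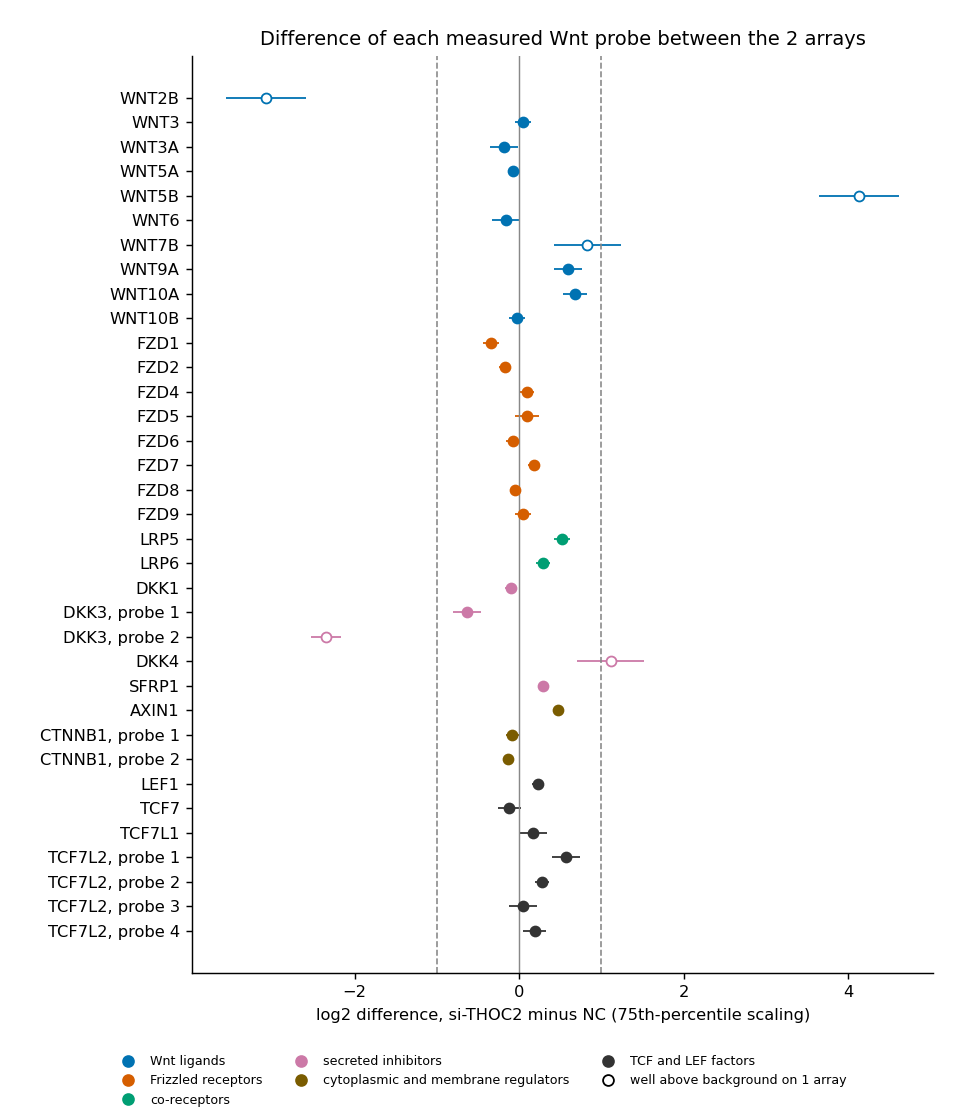
Log2 difference (si-THOC2 minus NC, after 75th-percentile scaling) of each measured Wnt probe, coloured by role, with the technical SD from repeated spots as bars and open symbols for probes measured on 1 array. The dashed lines mark 2-fold, and every probe measured on both arrays lies between them.

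**Figure D3:**
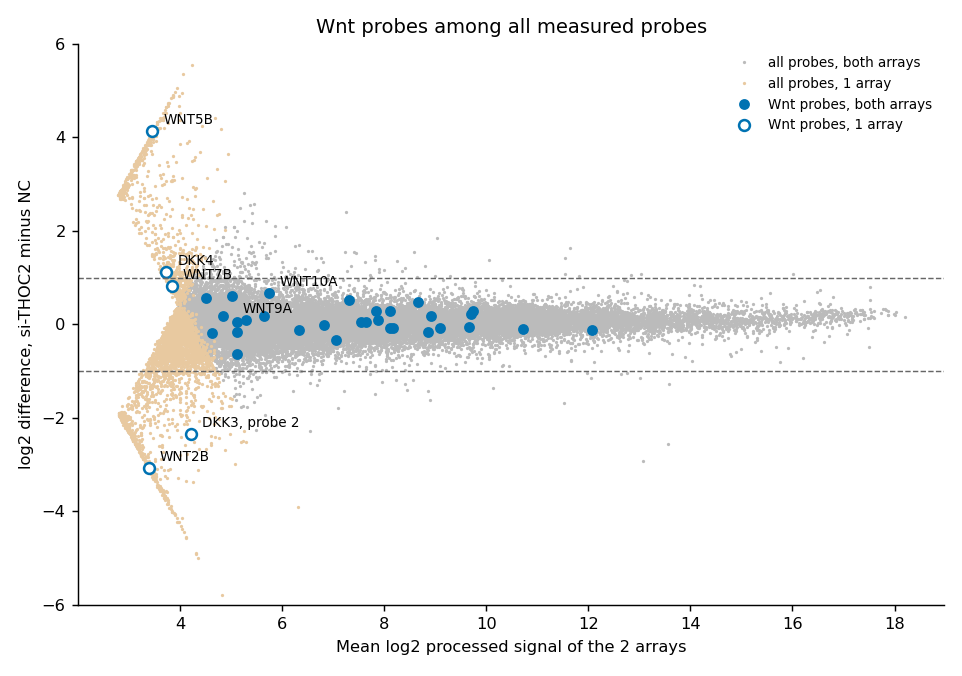
Log2 difference of the Wnt probes (blue) and of all 25345 measured probes against the mean log2 signal of the 2 arrays, with probes measured on 1 array in tan or as open circles and 2-fold as dashed lines. The 1-array probes fan out at low signals, where WNT5B, WNT2B and DKK3 probe 2 lie, and 1 probe lies beyond the plotted range.

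Among the ligands, WNT5A, the Wnt best known in melanoma invasion, was measured well on both arrays and differed little. It read 620 ± 62.1 with NC and 477 ± 47.8 with si-THOC2, a difference of -0.07 (technical SD 0.06). Its close relative WNT5B was not well above background with NC (2.91 ± 2.93) and stood at 41.4 ± 5.23 with si-THOC2. Set against the lowest signal well above background on the NC array, WNT5B was at least 3.50-fold higher. The ranking used its difference without the bound (4.14), which rests on the dim NC reading. By that value, 3% of the 1000 probes nearest in signal differed further in that direction. Those probes also had to be well above background on at least 1 array. WNT2B showed the opposite pattern, with 33.9 ± 4.50 on the NC array and 3.24 ± 3.25, not well above background, on the si-THOC2 array, which makes it at least 1.72-fold lower. By the difference of WNT2B without the bound (-3.08), 6.7% of the probes of like signal differed further in that direction. WNT7B was measured only with si-THOC2, by 1 of its 3 probes (11.9 ± 3.19 against 17.1 ± 3.67). Its bound after scaling was 1.44-fold, but the raw signals overlapped within the scanner errors, so no minimum fold is shown. By its difference without the bound (0.83), 15.4% of the probes of like signal were further up. Array position was looked at by dividing the array into 128 blocks. Of the other measured probes in the same block, 5.37% were higher by 2-fold around WNT5B and 9.43% around WNT7B, where the median block had 1.61% and all probes together 2.97%. Around WNT2B 6.13% were lower by 2-fold, where the median block had 2.56% and all probes 3.37%. The part of array position in these values was not tested.

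Of the 7 ligands measured on both arrays, WNT10A and WNT9A stood apart from the other 5. WNT10A, a ligand known for its part in tooth and skin development, read 47.2 ± 5.58 on the NC array and 60.9 ± 6.92 on the si-THOC2 array, a difference of 0.68 (technical SD 0.14). WNT9A, which takes part in joint formation, read 29.2 ± 4.17 and 35.6 ± 4.78, a difference of 0.60 (technical SD 0.17). Both differences were larger than 3 times the technical SD, which is uncertain at such dim signals. The 20 repeated probes with a mean log2 signal under 6 had SDs of 0.04 to 1.20, with a median of 0.39. Of the 1000 probes nearest in signal, 3.5% lay further out than WNT10A and 9.6% further than WNT9A. The raw signals of each gene overlapped or nearly overlapped within the scanner errors, so part of each difference comes from the scaling. The other 5 ligands lay within -0.18 to 0.05. WNT3A, the ligand most used to switch on β-catenin, read 29.1 ± 4.13 and 20.7 ± 3.80 (difference -0.18, technical SD 0.17), while its other probe was not well above background on either array. WNT6 read 40.7 ± 5.05 and 29.3 ± 4.38, a difference of -0.16 with a technical SD of 0.17. WNT3 (219 ± 22.1 and 183 ± 18.6, difference 0.05) and WNT10B (127 ± 13.1 and 101 ± 10.6, difference -0.02) differed by less than their technical SDs of 0.10.

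Several Wnt genes lie side by side in the genome, and 2 pairs had values for both genes. The probes of WNT6 and WNT10A lie 19481 bases apart on chromosome 2, and their differences were -0.16 and 0.68. The probes of WNT9A and WNT3A lie 138353 bases apart on chromosome 1, on opposite strands, with differences of 0.60 and -0.18. WNT6 and WNT3A each lay about 1 technical SD (0.17) from 0, and WNT3A changed sign with normexp background correction (0.05) and without a detection filter (0.51), so opposite directions within the pairs are not shown. In the remaining pairs of neighbours, WNT1 with WNT10B and WNT3 with WNT9B, only WNT10B and WNT3 were measured.

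The Frizzled receptors, which bind the ligands at the cell surface, were measured on both arrays in 8 of 10 genes. Their differences ran from -0.34 to 0.18 with a median of 0.00 (-0.02 after quantile normalization and -0.07 with normexp background correction), and 4 lay below 0 and 4 above. FZD1 differed most. Its signal was 166 ± 16.8 with NC and 106 ± 11.1 with si-THOC2, a difference of -0.34 (technical SD 0.10), and 10.5% of the probes of like signal were further down. FZD2 read 548 ± 54.9 and 393 ± 39.5 (difference -0.17, technical SD 0.07). FZD7 lay at the upper end, with 502 ± 50.3 and 460 ± 46.1, a difference of 0.18 with a technical SD of 0.07. Of the probes of like signal, 17.8% were further down than FZD2 and 22% further up than FZD7, so these receptors lay within the common spread of differences. FZD4 (253 ± 25.5 and 217 ± 22.0, difference 0.09), FZD5 (42.4 ± 5.22 and 36.5 ± 4.87, difference 0.09) and FZD9 (205 ± 20.7 and 171 ± 17.4, difference 0.05) lay slightly above 0. FZD6 (329 ± 33.0 and 251 ± 25.3, difference -0.08) and FZD8 (922 ± 92.2 and 721 ± 72.1, difference -0.05) lay slightly below. These 5 differences lay near or below the technical SDs of their probes, which ran from 0.06 to 0.15.

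Both LRP co-receptors, which Frizzled receptors need for signalling through β-catenin, had differences above 0 after scaling. LRP5 read 148 ± 15.1 on the NC array and 171 ± 17.4 on the si-THOC2 array, a difference of 0.52 (technical SD 0.10). Its raw signals overlapped within the scanner errors, so part of the difference came from the scaling. LRP6 read 231 ± 23.3 and 227 ± 23.0, a difference of 0.29 (technical SD 0.09), so that its raw signals were alike and its difference came from the scaling. With normexp background correction the differences were 0.38 for LRP5 and 0.16 for LRP6. Of the probes of like signal, 2.9% lay above LRP5 and 12.9% above LRP6.

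Of the secreted inhibitors, DKK3, a divergent member of the DKK family that is often silenced in tumours, had the lowest difference among the members measured on both arrays. Its probe 1 read 47.8 ± 5.65 on the NC array and 24.9 ± 4.14 on the si-THOC2 array, a difference of -0.63 (technical SD 0.17). Its probe 2 read 46.8 ± 5.54 and 7.44 ± 3.35, the latter not well above background, which makes it at least 2.38-fold lower. Both probes were lower with si-THOC2, and the sizes differed by 1.71 on the log2 scale. The mean of both (-1.49) passed 2-fold, probe 1 alone did not, and with the dim signal at its limit the gene lay at -0.94. The parts of the array around both spots also held more lower calls than most. In the block of probe 1, 8.33% of 204 other probes were lower by 2-fold, and in that of probe 2, 9.57% of 188. The part of array position in the DKK3 values was not tested.

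DKK4 was the only secreted inhibitor past 2-fold in the upward direction, and it rested on dim spots. It read 10.1 ± 3.27 on the NC array, not well above background, and 17.5 ± 3.89 on the si-THOC2 array. Its bound after scaling was 1.48-fold, but the raw signals nearly overlapped within the scanner errors. In its block 13.9% of 194 probes were higher by 2-fold, and the part of array position was not tested here either. DKK1, the classical blocker of LRP5 and LRP6, read 1949 ± 195 and 1465 ± 147, a difference of -0.10 (technical SD 0.07). It was -0.17 after quantile normalization and in the authors' normalized values, and -0.23 with normexp background correction.

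SFRP1, a secreted protein that binds Wnt ligands, and CTNNB1, which encodes β-catenin, each had a probe printed in 10 spots, which shows how far single spots scatter. The 10 SFRP1 spots ran from 801 to 897 on the NC array (mean 856) and from 754 to 928 on the si-THOC2 array (mean 848). Raw signals thus overlapped in full, and the raw mean was slightly lower with si-THOC2. The sign of the SFRP1 mean difference therefore came from the scaling. After scaling, each of the 10 spots lay above 0, from 0.11 to 0.41, with a mean of 0.29 and an SD of 0.11. Only 6 of 244 repeated probes of a log2 signal over 8 had a larger SD. The SFRP1 difference was 0.24 in the authors' normalized values and 0.16 with normexp background correction, and 11.8% of the probes of like signal were further up. The 10 CTNNB1 spots ran from 4922 to 5296 with NC (mean 5045) and from 3620 to 3971 with si-THOC2 (mean 3722), without overlap. After scaling they lay between -0.20 and -0.06, with a mean of -0.13 and an SD of 0.04, and none lay above 0. The difference of this probe was -0.21 in the authors' normalized values and -0.24 with normexp background correction. Of the probes of like signal, 10.5% were further down. The single-spot probe of CTNNB1 gave 317 ± 31.8 and 241 ± 24.3, a difference of -0.08. Spots of a probe on 1 array are technical repeats, and these spreads leave out the cultures.

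**Figure D4:**
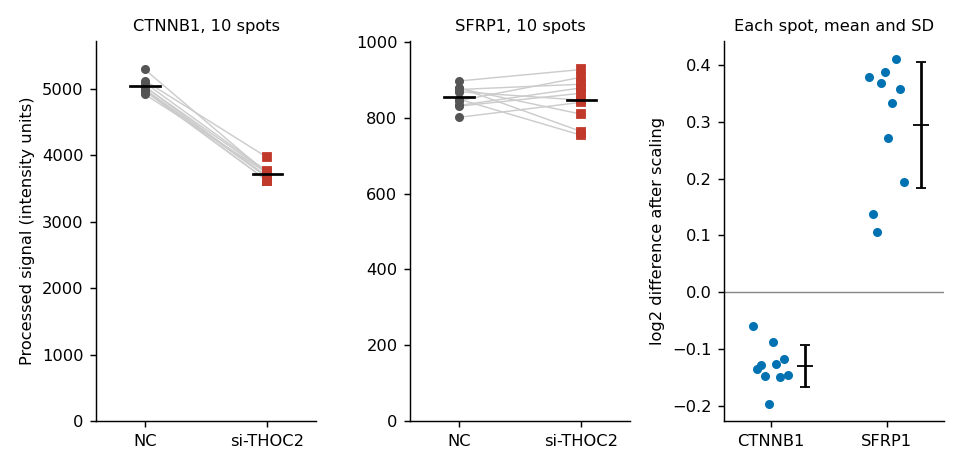
Processed signal (linear axis from 0) of the 10 spots of the CTNNB1 and SFRP1 probes on both arrays, with lines joining a position on the array and bars at the means, and at the right the log2 difference of each spot with its mean and SD. The CTNNB1 spots separate between the arrays, the SFRP1 spots overlap, and after scaling the CTNNB1 spots lie below 0 and the SFRP1 spots above 0.

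Inside the cell, AXIN1, the scaffold of the complex that marks β-catenin for destruction, had a higher value with si-THOC2 after scaling. It read 385 ± 38.6 on the NC array and 431 ± 43.3 on the si-THOC2 array, a difference of 0.47 (technical SD 0.07), and 1.9% of the probes of like signal were further up. The raw signals overlapped within the scanner errors, so part of the difference came from the scaling. With normexp background correction the difference was 0.30. AXIN2, NKD1 and RNF43, which β-catenin signalling itself switches on in many tissues, were not well above background on either array, so this common readout of the pathway gave no value.

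All 4 TCF and LEF factors, the DNA-binding partners of β-catenin, were measured on both arrays, and 3 of 4 lay above 0, as did 56.8% of all genes measured in that way. LEF1 read 859 ± 86.0 and 810 ± 81.1, a difference of 0.22 (technical SD 0.06). Its raw signal was lower with si-THOC2, so the sign came from the scaling. The difference was 0.10 with normexp background correction, and 20.1% of the probes of like signal were further up. TCF7L2 was covered by 4 probes, whose signals with NC and si-THOC2 were 20.9 and 25, 280 and 273, 38.1 and 31.7, and 52.1 and 48.0. The 4 probes gave differences of 0.57, 0.28, 0.04 and 0.19, with a mean of 0.27. Their technical SDs were 0.17, 0.08, 0.17 and 0.14. All 4 lay above 0, and the dimmest lay furthest out. Only the dimmest had a higher raw signal with si-THOC2, so the sign of the others came from the scaling. Of the probes of like signal, 12.4%, 14.4%, 45.3% and 28.9% lay further up. TCF7L1 (30.02 ± 4.23 and 27.3 ± 4.25, difference 0.17) stood at its technical SD of 0.17. TCF7 (93.4 ± 9.79 and 69.4 ± 7.66, difference -0.12) stood within its technical SD of 0.14.

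**Figure D5:**
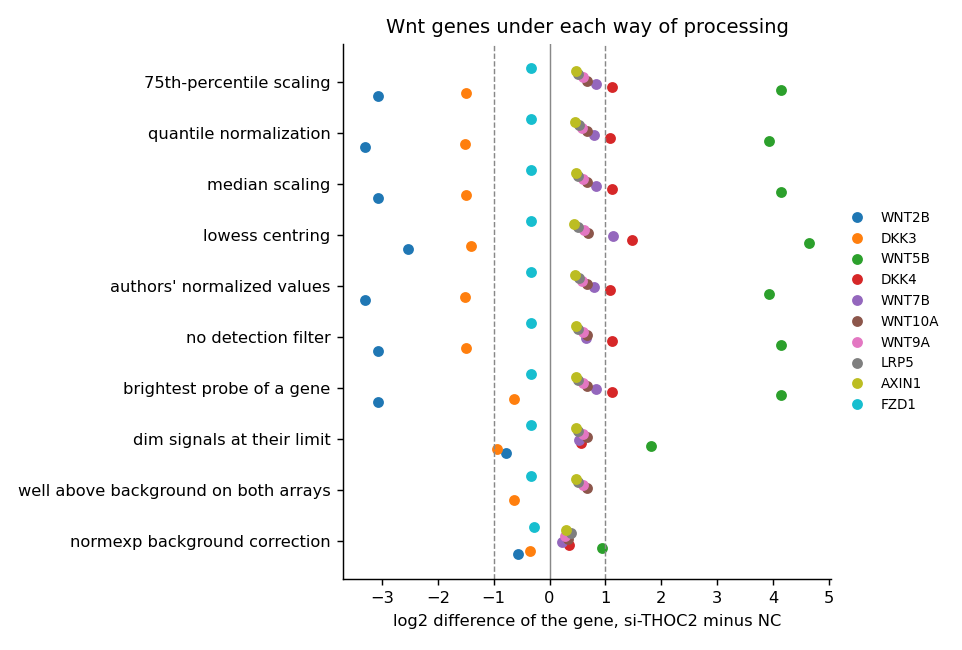
Log2 difference of 10 Wnt genes (si-THOC2 minus NC) under each way of processing the arrays, with dashed lines at 2-fold. WNT2B, DKK3, WNT5B and DKK4 lie outside 2-fold under several ways and inside it with normexp background correction. WNT2B, DKK3 and DKK4 also lie inside it with dim signals at their limit. All 10 genes keep their side of 0, which is no test of robustness.

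The other genes of the pathway were 108 in 6 lists from ligand secretion to β-catenin targets. Of these, 82 were measured, 2 were lower by 2-fold and 0 were higher, where 3.34% and 2.96% of all measured genes were, and the median difference was 0.02, the same as over all measured genes to that precision. Of the 79 measured on both arrays, 1 was lower and 0 were higher, beside 0.352% and 0.837% of all genes. APC2, a relative of the tumour suppressor APC in the destruction complex, read 54.1 ± 6.18 and 20.3 ± 3.85, a difference of -1.11 (technical SD 0.17). APC itself, with 1 of its 2 probes measured, read 76.1 ± 8.17 and 33.8 ± 4.72, a difference of -0.86 (technical SD 0.14). DAAM1, which links Dishevelled to the actin cytoskeleton, read 39.0 ± 5.02 and 18.3 ± 3.74, a difference of -0.78. Of the genes measured on both arrays, APC2 and APC were thus the 2 lowest. Of the probes of like signal, 1.5% lay below APC2 and 2% below APC, and in the block of APC2 7.84% of probes were lower by 2-fold.

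The gene past 2-fold on 1 array was TWIST1, a transcription factor of mesenchymal cells, and its probes gave unlike values. One of its 2 measured probes read 24.7 ± 4.44 with NC and fell short of that call with si-THOC2 (4.60 ± 3.24, at least 1.26-fold lower), and the other read 136 ± 13.9 and 115 ± 12, a difference of 0.07. At the upper end stood IGFBP4, a secreted protein that also binds Wnt receptors, with 66.0 ± 7.27 and 92.8 ± 9.86 (difference 0.80), DACT1, a partner of Dishevelled, with 51.8 ± 6.04 and 61.5 ± 7.04 (difference 0.56), and the target gene TBX3, with differences of 0.68 and 0.21 in its 2 probes. By list, 24 of 25 genes of the destruction complex and Dishevelled were measured with a median of 0.12, 19 of 21 nuclear cofactors with 0.09, 16 of 25 β-catenin targets with -0.03, 12 of 14 receptor partners and planar polarity genes with -0.18, and 9 of 15 genes of ligand secretion and extracellular inhibition with 0.02. Of the R-spondins and the genes of receptor turnover, which set how much Frizzled stays at the surface, 2 of 8 were measured (LGR6 and ZNRF3).

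The labelled cell type was checked against marker genes. Of 10 melanocyte lineage markers 6 were measured. SOX10 (6196 and 5196) differed by 0.06, MITF by -0.03 and PAX3 by 0.22. S100B (199 and 102) differed by -0.66, and the pigment gene DCT, close to background (18.0 and 24.4), by 0.75. MLANA was well above background only with si-THOC2 (2.94 with NC and 18.7 with si-THOC2). EDNRB and the pigment genes PMEL, TYR and TYRP1 were not well above background on either array. Of 8 markers of neural crest and undifferentiated melanoma cells 7 were measured, whose signals summed to 28839 on the NC array and 20445 on the si-THOC2 array, most of it from AXL (23189 and 16034), with a median scaled difference of -0.10, and SOX9 was not. Of 5 fibroblast markers only DCN was measured, at 62.4 with NC and 149 with si-THOC2 (difference 1.56). COL1A1, COL1A2, LUM and PDGFRA were not well above background on either array. Of 5 keratinocyte markers 2 were measured. KRT10 read 32306 and 20623 (difference -0.34). KRT14 had a mean difference of 1.06 over 2 probes, and 0.62 in the probe measured on both arrays. All 3 endothelial markers lay close to background (16.2 to 22.1 with NC). All 4 blood cell markers were measured, with CD79A at 1196 and 938 and the others at 24.0 to 27.4 with NC. The part of these genes in the Wnt values was not tested.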

How the data were processed

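RNA of both cultures was hybridized by the authors to 1 array each. The deposited scanner files hold intensity values per spot from Agilent Feature Extraction 10.7.1.1, background-subtracted and detrended (processed signal). The authors also deposited normalized log2 values, used as an alternative, and a table of fold changes per probe, not used here. Control spots and outlier spots (147 of 60901 on the NC array, 168 on the si-THOC2 array) were left out, and no spot was saturated. Log2 signals of a probe's spots were averaged and reduced by the array's 75th percentile. A probe counted as measured where either array called it well above background (25345 of 58199 probes, of them 22207 on both), and a gene was the mean of its measured probes, called at 2-fold. Repeated spots of 300 probes gave the technical SD (median 0.06 on the log2 scale). The median was 0.05 in the 244 probes with a mean log2 signal over 8. It was 0.39 in the 20 probes under 6, where single SDs ran from 0.04 to 1.20. For a probe dim on 1 array, the bound divides the bright signal by the dim one, raised to that array's dimmest signal well above background if it lay lower, each after scaling by its array's 75th percentile.

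The rule for naming was every member, THOC2, and, of the other Wnt lists, each gene past 2-fold and the 3 lowest and 3 highest on both arrays. Members and lists were chosen with earlier results of these data known. The methods' test needs more than 1 array per group and was not run. The calculation was tested on simulated data, which hold technical noise only. Tools were Python 3.11.15, numpy 2.4.6, pandas 2.3.3, scipy 1.17.1, statsmodels 0.14.6, matplotlib 3.10.9, R 4.3.3 and limma 3.58.1. With 1 array per group, the number of arrays limits the precision.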

Additional observations from a re-analysis of the deposited data

How the results depend on the processing

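The alternatives were the authors' normalized values, quantile normalization, lowess centring (span 0.3), median scaling, folds of 1.5 and 3, the brightest probe of a gene, counts of probes, no filter on detection, detection on both arrays only, dim signals raised to their limit, and normexp (offset 50). The number of Wnt genes lower by 2-fold was 2. It was 0 with normexp, with dim signals at their limit and on both arrays only, 1 with the brightest probe and at 3-fold, and 3 without a filter. The number higher was 2. It was 0 with normexp and on both arrays only, 1 with dim signals at their limit and at 3-fold, 3 with lowess centring, 6 without a filter, and 5 at 1.5-fold. The median of the Wnt genes, 0.07, was 0.28 without a filter, where the median of all genes was 0.24. The THOC2 mean, -1.03, was -0.51 with normexp and -1.42 with the brightest probe. Normexp adds an offset of 50 to each signal, which by construction shrinks differences of dim probes. Its counts over all 17514 measured genes were 17 lower and 46 higher. These counts were 585 and 518 with the main scaling, 424 and 605 with lowess centring, and 539 and 488 with the brightest probe. At 1.5-fold and 3-fold no such count over all genes measured on at least 1 array was made, so nothing is read from those member counts. The share of lower among all 2-fold calls was 53.0%, 41.2% with lowess, 27.0% with normexp, 29.6% on both arrays only, 36% without a filter (900 lower, 1600 higher) and 31.1% with dim signals at their limit. Of 30 measured genes, 27 kept their sign under each alternative. This count is no test of robustness. Several alternatives leave the value of a gene with a single probe measured on both arrays unchanged, and dim signals at their limit could not reverse a sign. WNT3 (-0.04) and WNT10B (0.01) changed sign with normexp, and WNT3A with normexp (0.05) and without a filter (0.51). The median of the secreted inhibitors, 0.10, was -0.10 on both arrays only and -0.03 with normexp. The cause was not tested where none is named. No paired analysis was possible because each group had 1 array. Signals near background limit what can be said of 4 members measured on 1 array and 22 on neither.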

Other observations

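The array also carried 24 symbols of antisense and long non-coding transcripts whose names contain that of a Wnt gene, with 36 probes. They were looked at after the values of the Wnt genes had been seen. Of these probes 8 were measured on at least 1 array and 5 on both, and 1 was lower by 2-fold, where 3.37% of all measured single-spot probes were. This was lnc-TCF7-3, which read 25.6 ± 3.95 on the NC array and 3.28 ± 3.29, not well above background, on the si-THOC2 array (at least 1.30-fold lower). The transcript named lnc-DKK3-1 read 82.5 ± 8.76 and 45.1 ± 5.56, a difference of -0.56 (technical SD 0.14), where DKK3 itself was lower on both of its probes. The transcript lnc-LRP5-1 read 152 ± 15.5 and 96.9 ± 10.3, a difference of -0.34, while LRP5 lay at 0.52. On both arrays, lnc-WNT1-2 (137 ± 14.0 and 101 ± 10.6) differed by -0.13, lnc-WNT7A-1 (201 ± 20.4 and 191 ± 19.4) by 0.23 and lnc-TCF7L2-2 (25.8 ± 4.09 and 27.0 ± 4.40) by 0.38. A name of this kind gives a neighbour on the genome, and no relation in function was examined.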
